A study of Rattus norvegicus with 4 samples.

Results

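Genes that mark GABAergic neurons were examined in cultured rat cortical neurons carrying a short hairpin RNA (shRNA) against PHF6. The set holds 8 genes, the homeobox genes Dlx1, Dlx2, Dlx5 and Dlx6, the LIM homeobox gene Lhx6, the glutamate decarboxylase genes Gad1 and Gad2, and the vesicular GABA transporter gene Slc32a1. They were chosen by name for their role in interneuron identity and in GABA synthesis and transport, out of 17245 genes named on the array. Each of the 8 had 1 probe set annotated to it alone, so no choice between probe sets was needed. Of the 8, 6 read above the background level on all 4 arrays, as did 55.3% of all genes. Dlx5 was above it on 2 arrays and Dlx1 on 0.

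GABAergic interneurons of the cortex are born outside it, in the ganglionic eminences of the ventral forebrain, and migrate into the cortex. The Dlx homeodomain proteins act in their progenitors and young neurons, and Lhx6 acts in those that come from the medial ganglionic eminence. GAD67 (Gad1) and GAD65 (Gad2) make GABA from glutamate, and the transporter encoded by Slc32a1, VGAT, loads it into synaptic vesicles. A culture from embryonic cortex holds interneurons as a minority among glutamatergic neurons, together with glial cells.

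The Dlx genes lie in pairs in the RefSeq annotation of the GRCr8 assembly. Dlx1 and Dlx2 are neighbouring protein-coding genes on chromosome 3, and Dlx5 and Dlx6 on chromosome 4. Gad1, Lhx6 and Slc32a1 lie singly on chromosome 3 and Gad2 on chromosome 17. RefSeq promoter sequence of GRCr8 was at hand for 5 of the 8 genes, Dlx1, Gad1, Gad2, Lhx6 and Slc32a1. The 250 bases before the start of Gad1 (chr3:75777202-75777451, plus strand) and Gad2 (chr17:89671468-89671717, plus strand) are shown because these 2 genes stood furthest above background and were both lower on array 2 than on array 1 in each group. Capitals mark the motif TATAAA, which is found in Gad1 alone and begins 213 bases before the annotated start.
Gad1: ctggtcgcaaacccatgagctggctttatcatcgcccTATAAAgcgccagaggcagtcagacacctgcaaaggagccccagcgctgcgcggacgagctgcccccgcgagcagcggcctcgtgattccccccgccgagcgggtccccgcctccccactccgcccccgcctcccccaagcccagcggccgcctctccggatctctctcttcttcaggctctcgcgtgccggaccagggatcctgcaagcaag
Gad2: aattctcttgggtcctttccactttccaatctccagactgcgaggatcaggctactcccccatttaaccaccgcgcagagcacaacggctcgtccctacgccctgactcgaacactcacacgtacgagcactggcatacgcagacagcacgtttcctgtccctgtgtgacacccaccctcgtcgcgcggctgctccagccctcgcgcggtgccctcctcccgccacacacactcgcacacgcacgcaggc
The homeodomain core motif TAATTA, which is its own reverse complement, occurred in 0 of the 5 upstream stretches, against 4.86% of the 33469 promoters in the table. TATAAA, searched on both strands, occurred in 1 of the 5 and in 12.9% of all. The 5 stretches held 14 to 34 CG dinucleotides, with 34 in Slc32a1, 23 in Gad1 and 22 in Gad2, against a median of 5 over all promoters. Of all promoters, 27.6% held at least 14.

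The 4 arrays measured total RNA from primary cortical neurons of Sprague Dawley rats at embryonic day 18, all infected with pLL3.7 lentivirus and collected 5 days later. In 2 arrays the virus expressed control shRNA and the genotype is given as wild type. In the other 2 it expressed PHF6shRNA-2 and the genotype is given as PHF6 knockdown, although the source field of these arrays reads PHF6 KO. PHF6 is a PHD-finger protein of the nucleus encoded on the X chromosome. A single PHF6 hairpin was used, so effects of PHF6 loss and other effects of this hairpin cannot be told apart. The arrays are biological duplicates by their titles. No label ties them to separate cultures or animals, so p-values measure the spread between these arrays, which may be technical. The background level of an array was set at the 95th percentile of 206 genes whose symbols begin with Olr or Vom, olfactory and vomeronasal receptors. It was 41.1 and 32.5 intensity units in control arrays 1 and 2, and 39.9 and 32.7 in PHF6 shRNA arrays 1 and 2. The probe set of Phf6 read 32.8 and 34.3 with control shRNA and 34.4 and 31.3 with PHF6 shRNA, above background on 1 of 4, so it gives no check of the labels. The presence of neuronal RNA could be checked: 10 of 10 pan-neuronal markers were above background on all 4 arrays, as were 55.3% of all genes. This count does not tell the region or the purity of the culture.

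The 4 Dlx genes read higher on each PHF6 shRNA array than on either control array, by small margins that did not pass the test. Dlx2 read 55.2 and 56.4 intensity units in control arrays 1 and 2 and 67.7 and 60.3 in PHF6 shRNA arrays 1 and 2. The control pair lay close together, and the PHF6 shRNA array numbered 1 stood highest. The difference was 0.20 ± 0.10 log2 units (limma estimate and SE), a ratio of 1.15, with a 95% interval from -0.04 to 0.43 and a limma adjusted p of 0.58. Dlx6 read 44.5 and 41.3 in the control arrays against 52.4 and 49.6 in the PHF6 shRNA arrays. Here the gap between the groups exceeded the gap within either. The difference was 0.25 ± 0.09 log2 units, or 1.19-fold, with a 95% interval from 0.03 to 0.47 and a limma adjusted p of 0.41. Both genes stood not far above background, so these sizes are uncertain. Dlx6 was 1.08 and 1.27 times over it in control arrays 1 and 2, and 1.32 and 1.52 times in PHF6 shRNA arrays 1 and 2. Dlx2 was 1.34, 1.74, 1.70 and 1.84 times over it in the same order.

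Dlx5 and Dlx1 were dimmer still, too dim for a size to be read. Dlx5, the neighbour of Dlx6, read 32.1 and 29.0 in the control arrays, both below background, and 42.4 and 34.7 in the PHF6 shRNA arrays, both 1.06-fold over it. Its difference was the highest of the 8, at 0.33 ± 0.13 log2 units (95% interval 0.01 to 0.65, limma adjusted p = 0.44). Dlx1 read 27.7 and 27.8 against 31.5 and 28.7, below background on all 4 arrays, and differed by 0.11 ± 0.09 (limma adjusted p = 0.81). RMA compresses differences near background, so these values cannot give the true fold. The sizes also rested on single arrays. Without PHF6 shRNA array 1, Dlx1, Dlx2 and Dlx5 differed by 0.05, 0.11 and 0.19 log2 units, and without PHF6 shRNA array 2 by 0.18, 0.28 and 0.48, while Dlx6 stayed between 0.20 and 0.30 with any 1 array left out.

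Lhx6 overlapped between the groups. It read 74.7 and 48.5 with control shRNA and 75.7 and 55.4 with PHF6 shRNA. In both groups the array numbered 1 was the high one, by 1.54-fold in the control pair and 1.37-fold in the PHF6 shRNA pair. The difference between the groups was 0.10 ± 0.25 log2 units, and its 95% interval from -0.51 to 0.72 was the widest of the 8 genes (limma adjusted p = 0.98). A change in Lhx6 of up to 1.65-fold upward or to 0.70 of the control level therefore lies within the interval. Lhx6 was 1.82 and 1.49 times over background in control arrays 1 and 2. In PHF6 shRNA arrays 1 and 2 it was 1.90 and 1.69 times over it. So near background the interval does not bound the true fold.

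The GABA synthesis and transport genes overlapped between the groups as well. Gad1 read 253 and 193 with control shRNA and 277 and 221 with PHF6 shRNA. On the log2 scale this was 7.79 ± 0.27 against 7.95 ± 0.23 (SD, n = 2 each). The difference was 0.16 ± 0.17 (SE), with a 95% interval from -0.27 to 0.59 and a limma adjusted p of 0.90. Both PHF6 shRNA arrays thus exceeded the control array of the same number, but PHF6 shRNA array 2 lay below control array 1. Gad2 read 332 and 254 with control shRNA and 315 and 260 with PHF6 shRNA, so the control arrays gave both the highest and the lowest value. It differed by -0.02 ± 0.16 log2 units (95% interval -0.43 to 0.39, limma adjusted p = 1.00).

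Slc32a1 had the smallest difference of the 8. It read 83.9 and 68.5 with control shRNA and 82.0 and 71.3 with PHF6 shRNA, and differed by 0.01 ± 0.13 log2 units (95% interval -0.32 to 0.35, limma adjusted p = 1.00). For Gad1, Gad2 and Slc32a1 the intervals reach ratios of 1.51, 1.31 and 1.27 upward and of 0.83, 0.74 and 0.80 downward. Changes up to those sizes therefore lie within the intervals. With 2 arrays a group 0 of the 17245 genes were called, so larger changes could go uncalled as well. In bulk RNA, a change in the number of GABAergic cells and a change in RNA per cell cannot be told apart.

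**Figure D1:**
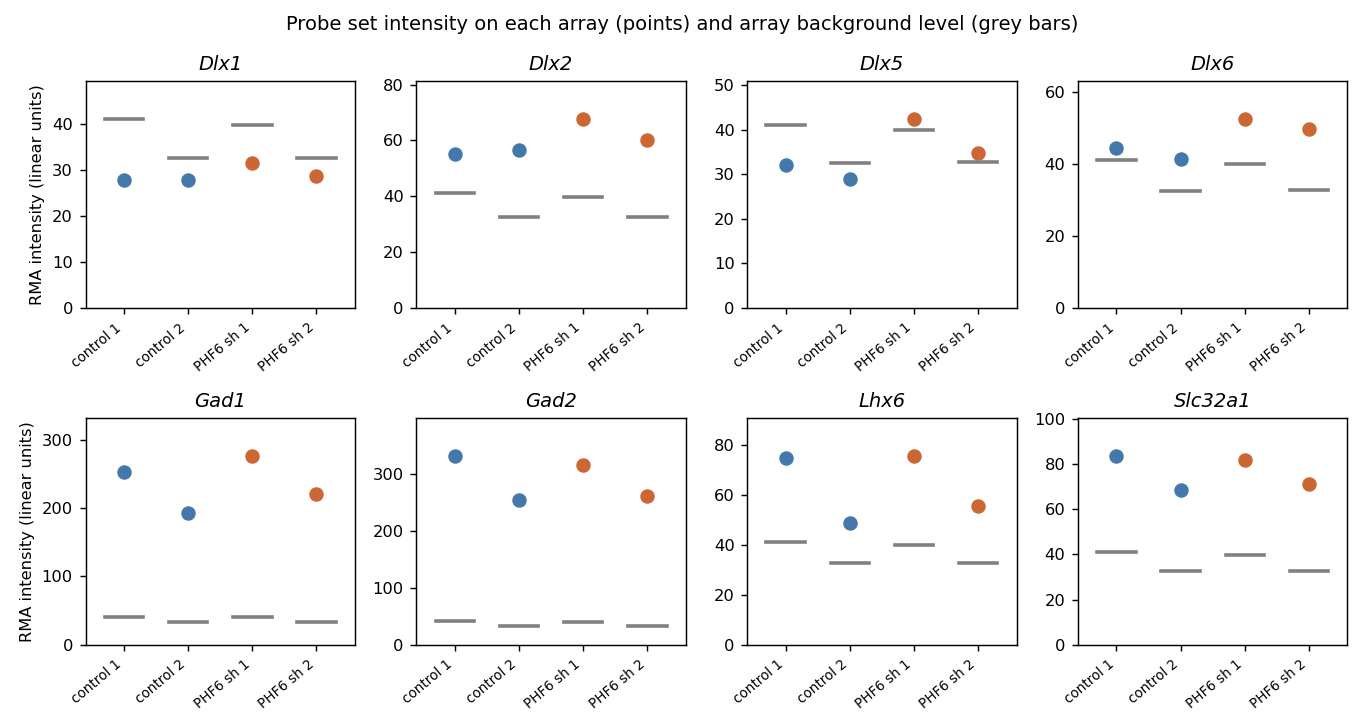
Each panel plots the RMA intensity of 1 gene (vertical axis, linear units from 0) on the 4 arrays (horizontal axis); points are single arrays, blue for control and orange for PHF6 shRNA, and grey bars are the background level of each array. The 4 Dlx genes have both orange points above both blue points, with Dlx1 under the bars throughout, while in Gad1, Gad2, Lhx6 and Slc32a1 the arrays numbered 2 are the lower ones in both groups.

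Over the 8 genes, 7 had a mean difference above 0, as did 47.7% of the 17245 genes, and the median difference was 0.14 log2 units against -0.01 over all genes. Of the 8 genes, 4 had both PHF6 shRNA arrays above both control arrays and 0 had both below. These 4 were the Dlx genes, and over all genes the shares were 16% above and 21.7% below. The Dlx genes include Dlx1, which did not exceed background, and Dlx5, which exceeded it only in the PHF6 shRNA arrays, by 1.06-fold. With the background set instead from 1272 receptor genes, Dlx5 was below it on all 4 arrays. By limma's adjusted p, 0 of the 8 genes were called, as were 0% of all genes. At an unadjusted p under 0.05, 2 of the 8 were reached, Dlx5 (0.044) and Dlx6 (0.034), both toward higher signal, where 10.8% of all genes reached that level 3.28% toward higher and 7.52% toward lower signal. The groups are small: an exact permutation test of 1 gene with 2 arrays against 2 cannot give a two-sided p below 0.333. The count of 7 genes above 0 rested on single arrays, as it was 4 without control array 2 and 4 without PHF6 shRNA array 1, and 8 without either of the other arrays. The 4 genes that stayed above 0 were the Dlx genes in both cases. The median difference was 0.04 without control array 2, 0.02 without PHF6 shRNA array 1, 0.24 without control array 1 and 0.29 without PHF6 shRNA array 2.

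**Figure D2:**
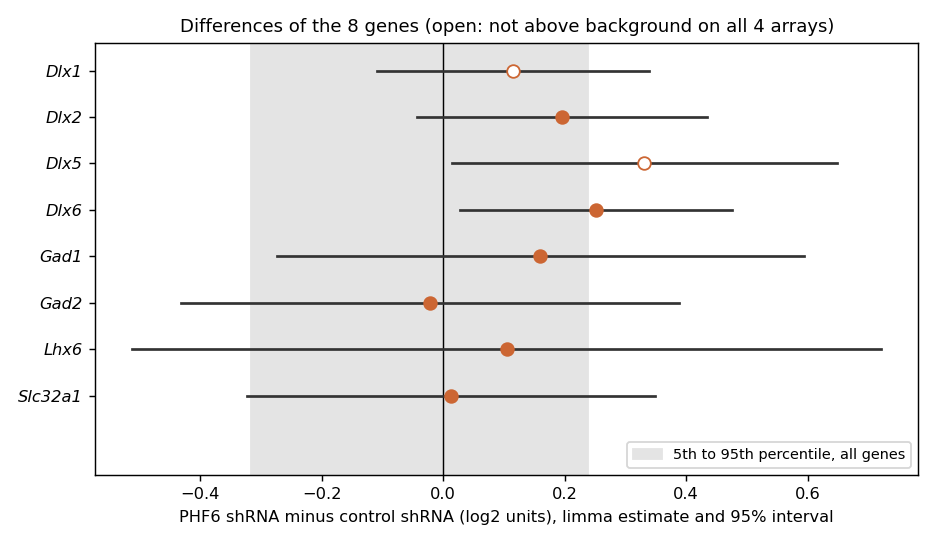
Points give the PHF6 shRNA minus control shRNA difference of each gene in log2 units (horizontal axis) and lines its 95% interval from limma; the grey band spans the 5th to 95th percentile of the differences of all 17245 genes, from -0.32 to 0.24. Dlx5 (open, not above background on all arrays) and Dlx6 lie beyond the right edge of the band with intervals above 0, and the other 6 intervals include 0.

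The spread within the groups followed the number in the array titles. Gad1, Gad2, Lhx6 and Slc32a1 were lower on array 2 than on array 1 in both groups. In the control pair these differences were -0.39, -0.38, -0.62 and -0.29 log2 units, and in the PHF6 shRNA pair -0.33, -0.27, -0.45 and -0.20. Each of these 8 differences was larger in size than the difference between the groups for the same gene. Dlx5 and Dlx6 went the same way by smaller amounts, -0.15 and -0.11 in the control pair and -0.29 and -0.08 in the PHF6 shRNA pair. Dlx1 and Dlx2 differed by 0.01 and 0.03 in the control pair and by -0.13 and -0.17 in the PHF6 shRNA pair. In all, 6 of the 8 genes were lower on array 2 in both groups, as were 33.5% of all genes and 22.6% of the 9538 genes above background on all 4 arrays, of which 44% were higher on array 2 in both groups.

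The background level moved with the same number. From array 1 to array 2 it differed by -0.34 log2 units in the control pair and by -0.29 in the PHF6 shRNA pair. This level is a high percentile of the 206 receptor genes. Their median moved less, by -0.12 log2 units in the control pair and -0.06 in the PHF6 shRNA pair. The median difference between the arrays over all genes was 0.002 in the control pair and -0.006 in the PHF6 shRNA pair. Of 1272 olfactory and vomeronasal receptor genes (symbols beginning with Olr, Vom, or Or and a digit), 79.5% were lower on array 2 in both groups. Taken as a ratio to the background of its own array, Gad1 stood at 6.15 and 5.95 with control shRNA and 6.95 and 6.75 with PHF6 shRNA. Gad2 stood at 8.07, 7.83, 7.90 and 7.97 in the same order, and Slc32a1 at 2.04, 2.11, 2.06 and 2.18. On this ratio the 2 arrays of a group differed by less than 0.1 log2 units for these 3 genes, while Lhx6 still differed by -0.28 and -0.16. The part of the background in these differences was not tested. The ratio cannot decide it, because it divides by a level that itself fell by a similar amount.

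**Figure D3:**
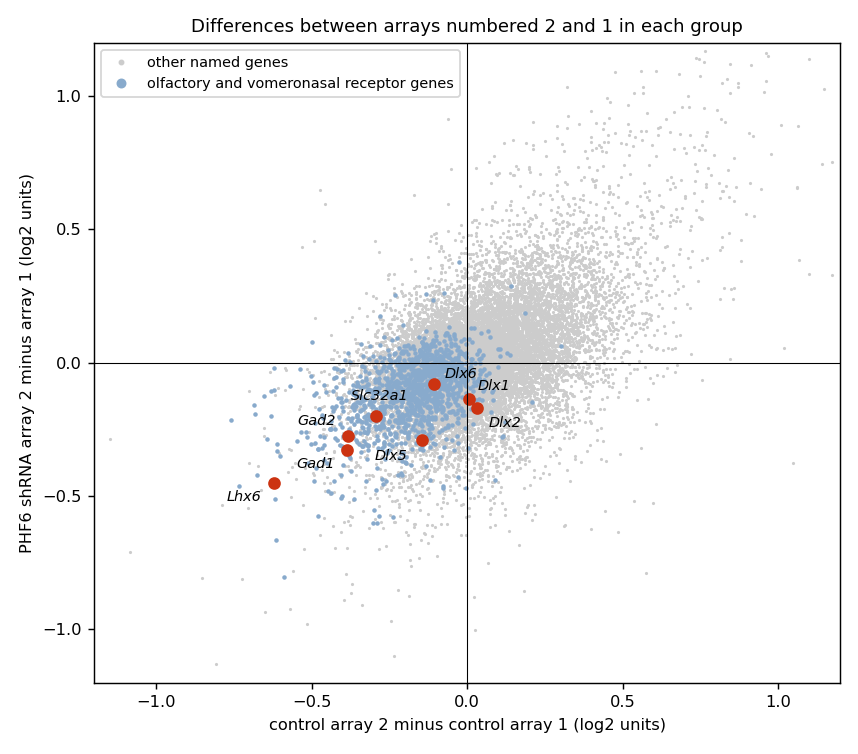
Each point is a gene, with array 2 minus array 1 in log2 units for the control pair (horizontal axis) and the PHF6 shRNA pair (vertical axis); grey points are other named genes, blue points olfactory and vomeronasal receptor genes, red points the 8 genes, and 49 genes fall outside the axes. Lhx6, Gad1, Gad2 and Slc32a1 lie at the lower left, between -0.62 and -0.20 on both axes, where the blue points also lie, and Dlx1 and Dlx2 lie near 0 on the horizontal axis.

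Of the 6 member genes above background on all 4 arrays, Lhx6 had the widest range over the arrays, at 0.64 log2 units. Among the 9537 other named genes above background on all 4, the 5 with the most similar pattern, by the root mean square difference of centred log2 values over the 4 arrays, were Or9s15 (0.023), Krtap31-1 (0.036), Krtap12-1l1 (0.037), Atp6v1a (0.046) and Or52m1 (0.047). Or9s15 and Or52m1 are olfactory receptor genes, the Krtap genes encode keratin-associated proteins of hair, and Atp6v1a encodes a subunit of the vesicular proton pump. Or9s15 read 94.95 and 59.5 with control shRNA and 94.6 and 70.7 with PHF6 shRNA. By the same measure Gad1 ranked 26th and Gad2 60th in likeness to Lhx6. Dlx6 ranked 1286th and Dlx2 1873rd. Likeness over 4 arrays is a description and carries no test.

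Other transcription factors of the ganglionic eminences and of interneurons were not called in either direction, 0 of 22 measured by limma's adjusted p and 0 at an unadjusted p under 0.05. Of the 22, 15 were higher and 7 lower in the mean, with a median of 0.05 log2 units, and 14 were above background on at least 2 arrays. Zeb2, a zinc-finger factor that acts downstream of the Dlx genes in migrating interneurons and is also expressed in other cells, read 479 and 669 with control shRNA and 701 and 790 with PHF6 shRNA. Its difference was 0.39 ± 0.17 (limma adjusted p = 0.52), or 0.15 without control array 1 and 0.63 without control array 2. Nkx2-1, the factor of the medial ganglionic eminence that induces Lhx6, read 42.9 and 49.4 against 52.7 and 54.2, a difference of 0.22 ± 0.10 close to background (limma adjusted p = 0.55). Six3 and Sp9, homeobox and zinc-finger factors of the ventral forebrain, differed by 0.17 and 0.10, and the chromatin organiser gene Satb1, the brightest of the list, by 0.03.

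Genes of GABA breakdown, uptake and precursor supply were split, 5 higher and 3 lower of 8 measured, with a median of 0.03 log2 units and 0 called or reaching an unadjusted p under 0.05. Abat, the transaminase that degrades GABA, differed by 0.15 ± 0.13, and Aldh5a1, the dehydrogenase that acts after it, by 0.20 ± 0.10. The glutamine transporter genes Slc38a1 and Slc38a2 differed by -0.15 ± 0.09 and -0.17 ± 0.16. Slc38a1 read 864 and 884 in the control arrays against 757 and 816, without overlap. The count of higher genes was 1 without control array 1 and 6 without control array 2. The adjusted p of the 4 named genes ran from 0.58 to 0.86 by limma.

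Interneuron subtype markers and migration receptors had 15 higher and 7 lower of 22 measured, with a median of 0.04 log2 units. Of the 22, 0 were called, and 3 reached an unadjusted p under 0.05, 2 higher and 1 lower. Over all genes 10.8% reached that level, 3.28% higher and 7.52% lower. Calb1, a calcium buffer that excitatory neurons can also express, read 45.9 and 94.8 with control shRNA and 202 and 156 with PHF6 shRNA. It differed by 1.43 ± 0.35 (limma adjusted p = 0.28), or by 0.91 to 1.95 with an array left out. On control array 1 Calb1 was only 1.1 times over background, so this size is uncertain. Sstr2, a somatostatin receptor gene, read 194 and 233 against 304 and 307 and differed by 0.53 ± 0.11 (limma adjusted p = 0.24). Erbb4, the neuregulin receptor of migrating interneurons, read 204 and 166 against 137 and 147 and differed by -0.38 ± 0.12 (limma adjusted p = 0.39). Kcnc1, a potassium channel gene of fast-spiking cells, differed by -0.28 ± 0.14 (limma adjusted p = 0.60), or by -0.09 without control array 2. The neuropeptide genes Sst and Npy, the brightest of the list, differed by 0.16 ± 0.17 and 0.17 ± 0.17. Both had the pattern of Gad1: Sst read 2734 and 2048 with control shRNA and 2927 and 2397 with PHF6 shRNA, and Npy 835 and 658 against 944 and 738. In this list 7 genes, among them the interneuron type markers Pvalb, Vip, Calb2 and Htr3a, were above background on 0 arrays. The count of higher genes was 8 without control array 2 and 11 without PHF6 shRNA array 1.

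**Figure D4:**
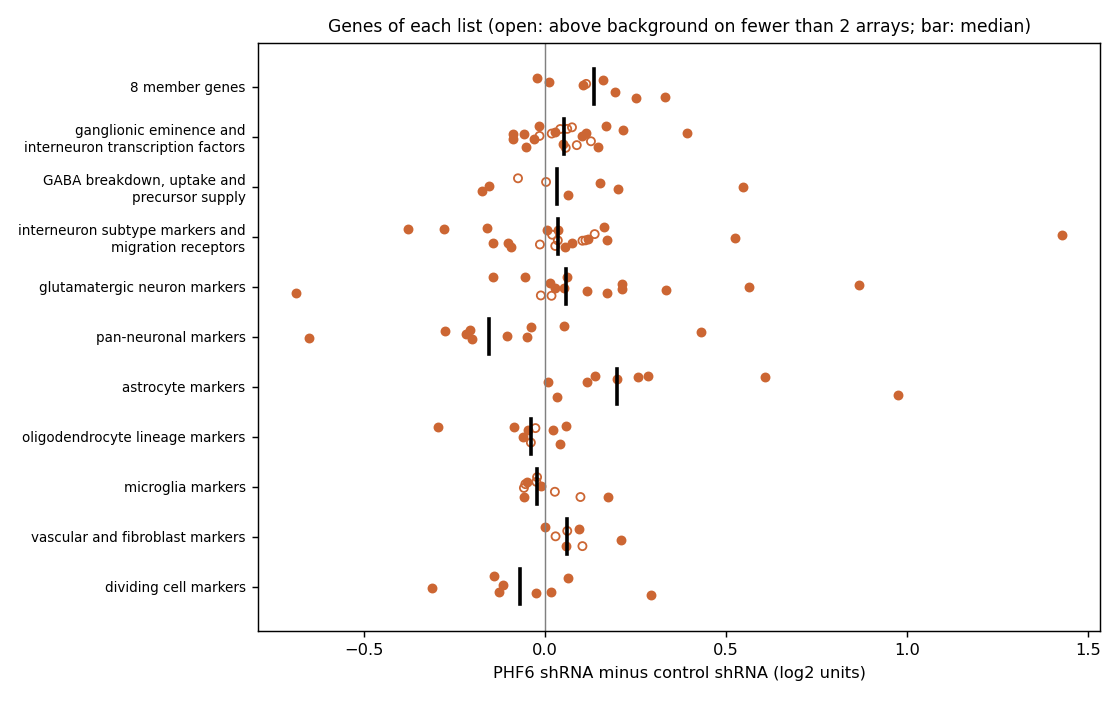
Each point is a gene of a list, placed by its PHF6 shRNA minus control shRNA difference in log2 units (horizontal axis); open points were above background on fewer than 2 arrays, black bars are list medians, and vertical scatter within a list has no meaning. The 8 genes have a median of 0.14, the other 3 interneuron and GABA lists have medians of 0.03 to 0.05 and astrocyte markers one of 0.20, and 0 genes of these lists passed the adjusted threshold.

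Markers of neurons in general and of other cell types were set beside these values. Of 10 pan-neuronal markers 8 were lower in the PHF6 shRNA mean, with a median of -0.15 log2 units that ran from -0.16 to -0.09 under other scalings and with single arrays left out. Of the 10, 5 had both PHF6 shRNA arrays below both control arrays and 1 had both above, and 0 were called. Over all genes the shares were 21.7% below and 16% above. At an unadjusted p under 0.05 the shares over all genes were 7.52% lower and 3.28% higher. Among the 10 markers there were 2 lower at that level, the neurofilament gene Nefl (-0.65 ± 0.21) and the tubulin gene Tubb3 (-0.22 ± 0.08). There was 1 higher, the RNA-binding protein gene Elavl4 (0.43 ± 0.10). Stmn2, a microtubule regulator, and Snap25, a SNARE, differed by -0.20 and -0.05. Of 16 glutamatergic neuron markers 12 were higher, with a median of 0.06 log2 units, and 0 were called. At an unadjusted p under 0.05 there were 3 higher (Camk2a at 0.57, Emx1 at 0.34, Neurod1 at 0.87) and 1 lower (the vesicular glutamate transporter gene Slc17a6 at -0.69). Slc17a7, the other main transporter gene of this kind, read 1009 and 717 with control shRNA and 1141 and 852 with PHF6 shRNA, so the drop on the arrays numbered 2 was not limited to GABAergic genes. Neurod6 differed by 0.01. Summed over the list, intensity came to 4558 and 4528 with control shRNA and 5176 and 4954 with PHF6 shRNA. The 8 GABAergic genes summed to 903 and 719 against 943 and 781.

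Astrocyte markers were not called as different between the groups, and their sum was higher on array 2 in both. Of 9 measured 9 were higher in the PHF6 shRNA mean, as were 47.7% of all genes, with a median of 0.20 log2 units and 0 called. In 2 of the 9 both PHF6 shRNA arrays were above both control arrays, as in 16% of all genes. At an unadjusted p under 0.05 by limma there were 2 higher, Slc1a2 and Aldoc, and 0 lower. Over all genes those shares were 3.28% and 7.52%. The count of higher genes was 8 under cyclic loess. It was 4 without control array 1 (median -0.01) and 4 without PHF6 shRNA array 2 (median -0.16). Slc1a2, a glutamate transporter gene, differed by 0.98 ± 0.20 (limma adjusted p = 0.24) and Aldoc by 0.61 ± 0.18 (limma adjusted p = 0.35), while Fgfr3, S100b and Slc1a3 differed by 0.28, 0.14 and 0.12. Their summed intensity was 842 and 1494 with control shRNA and 1179 and 1824 with PHF6 shRNA, and Slc1a3 alone read 254 and 622 against 278 and 665. Dividing cell markers summed to 575 and 925 with control shRNA and 517 and 973 with PHF6 shRNA. The arrays numbered 2, on which Gad1, Gad2, Lhx6 and Slc32a1 were lower, were thus those with the higher sums of astrocyte and dividing cell markers in both groups. Oligodendrocyte lineage markers summed to 403 and 497 against 382 and 481, vascular and fibroblast markers to 1539 and 2371 against 1589 and 3006. Single genes made most of these differences between array numbers. Without the intermediate filament gene Vim the other 6 vascular and fibroblast genes summed to 286 and 268 against 294 and 280. Without the transcription factor gene Olig1 the other 8 oligodendrocyte lineage genes summed to 353 and 364 against 343 and 367. Microglia markers summed to 332 and 293 against 327 and 298, with 6 of 10 above background on 0 arrays. The part of these cells in the values of the 8 genes was not tested.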

How the data were processed

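Total RNA was made into sense-strand target and hybridised, per the labels' protocols, to 1-colour whole-transcript arrays. The authors deposited RMA intensities, 1 value a probe set on each array, per the submitters' processing notes, with neither version nor settings given in the sources used here. The scale is linear, from 8.57 to 6121, so log2 was taken. Of 29214 rows, 18644 had 1 gene symbol in the platform annotation, updated by gene identifier to RefSeq (GRCr8) for 18460; 962 had several and 9608 none there. The brightest probe set stood for a gene. Groups came from the sample titles. The test was limma's lmFit and eBayes (version 3.58.1, R 4.3.3; 2-sided, no block), with Benjamini-Hochberg adjustment over 17245 genes and a threshold of 0.05, and checked on simulated data. The number of arrays limits the precision. At most 11 values were identical between any 2 arrays.

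The genes and lists were chosen with earlier results of these data known. Named by rule were the 8 genes, Phf6, up to 4 genes per list by smallest p (above background on at least 2 arrays), the 2 brightest of each list, and the 5 genes most like the widest-ranging member. For oligodendrocyte, microglia, vascular and dividing cell lists sums or counts are given; Vim and Olig1 were singled out after their values were seen. Alternatives were each array left out in turn, a block for the duplicate number, 3 scalings, a filter on dim genes, other priors, the mean of probe sets, another threshold and other background levels.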

Additional observations from a re-analysis of the deposited data

How the results depend on the processing

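Of the 8 genes, 0 were called in any of the 12 alternative fits (Dlx1 was not in the fit without dim genes), with adjusted p of 0.061 (Dlx5, in the replicate block) or more by limma, and at an adjusted p under 0.10 in the reported fit 0 of all genes were called. With the duplicate number as a block 909 of all genes were called (limma), and Dlx6 and Gad1 had adjusted p of 0.11 and 0.31; no label says that the numbers pair the arrays. Of the other genes named, that fit called 9: Slc1a2 (adjusted p = 0.0071), Slc17a6 and Neurod1 (0.0077 each), Nefl (0.010), Camk2a (0.013), Aldoc (0.015), Sstr2 (0.021), Elavl4 (0.026) and Calb1 (0.026). Leaving out each array in turn gave 0 to 90 genes called, 0 of them among the 8, and 4 to 8 of the 8 genes above 0. The 8 genes' median difference ran from 0.02 to 0.29 log2 units in those fits and from 0.13 to 0.17 under 3 other scalings. The Dlx genes kept their direction in all of these fits, but not their size: with an array left out Dlx1 ran from 0.05 to 0.18, Dlx2 from 0.11 to 0.28, Dlx5 from 0.19 to 0.48 and Dlx6 from 0.20 to 0.30. For some other genes named, the smallest size with an array left out was below the reported one by over 1.5 times. This was without control array 1 for Zeb2, Nkx2-1, Sp9, Calb1, Erbb4, Camk2a, Neurod1, Nefl and Aldoc. It was without control array 2 for Kcnc1 (-0.09) and Stmn2 (-0.12). For Aldh5a1 and Slc38a1 it was without PHF6 shRNA array 1, and for Fgfr3 without PHF6 shRNA array 2. With an array left out, values crossed 0 for Gad1 (-0.034 to 0.35), Gad2 (-0.21 to 0.17), Lhx6 (-0.21 to 0.42) and Slc32a1 (-0.13 to 0.16). They also did for Phf6 (-0.10 to 0.035), Satb1 (-0.018 to 0.073), Abat (-0.015 to 0.32), Slc38a2 (-0.40 to 0.052), Sst (-0.046 to 0.37), Npy (-0.0057 to 0.35), Neurod6 (-0.034 to 0.062), Slc17a7 (-0.034 to 0.46), Snap25 (-0.14 to 0.042), S100b (-0.0057 to 0.29) and Slc1a3 (-0.53 to 0.76). Such fits leave unequal array numbers in the groups. Gad2 turned to 0.050 under a further quantile normalization and to 0.069 under cyclic loess, as did Snap25 to 0.0018 under the latter. Slc38a2 shrank to -0.11 under the former and -0.086 under the latter, and Slc38a1 to -0.079 under cyclic loess. With the mean of probe sets Sp9 was 0.027. The cause was not tested. With the background at the 99th percentile of the receptor genes, 2 of the 8 genes (Gad1 and Gad2) exceeded it on all 4 arrays rather than 6. The median of all genes or olfactory receptors alone gave 4, and Dlx6 was not among them in either case. With the median of all genes Dlx2 was among the 4 and Lhx6 was not. With olfactory receptors alone Lhx6 was among the 4 and none of the Dlx genes was. The same Dlx genes were all missing at the 99th percentile. All 1272 receptor genes, a set chosen after seeing the data, gave 6, with Dlx5 below this level on all 4 arrays.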
